A study of Mus musculus with 6 samples.

Results

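Transcripts of the HGF-MET axis were examined in 22Rv1, a human prostate cancer cell line, and in a subline of it that had become resistant to BL-B01D1. The 9 genes are HGF and MET, the related pair MST1 and MST1R, the activating proteases HGFAC, ST14 and HPN, and the protease inhibitors SPINT1 and SPINT2, out of 58735 genes in the count table. They were picked by gene name around HGF, which had itself been selected on its difference between these same libraries, so all differences below between parental and resistant cells in these 9 genes are a description and were not put to a test of their own. Parental 22Rv1 cells, which received vehicle, gave 3 libraries, and the subline, 22Rv1 BL-B01D1_R, selected in rising concentrations of BL-B01D1, gave 3 more. BL-B01D1 is an antibody-drug conjugate against EGFR and HER3. The subline came from 1 selection and nothing states that its libraries were separate selections, so the spread between libraries may be technical and covers no repeat of the selection. The labels give mouse as the organism, but cell line, gene identifiers and genome build (hg38) are human, so the genes were taken as human.

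HGF is a secreted growth factor that is made as an inactive single chain and becomes active once a serine protease cuts it. The cut form binds MET, a receptor tyrosine kinase whose signal drives growth, scattering and invasion of epithelial cells. MST1, also called macrophage-stimulating protein, is a relative of HGF that needs the same kind of cut and binds MST1R, also called RON. ST14 (matriptase) and HPN (hepsin) are membrane-bound serine proteases of epithelial cells, HGFAC is a serine protease made mostly by the liver and found in blood, and SPINT1 and SPINT2 are membrane-bound Kunitz-type inhibitors that hold these proteases in check. In the prostate, HGF is known as a product of the stroma, and MET is usually low in luminal epithelial cells.

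Library totals ranged from 13821639 to 17251491 counts on genes. Levels are given as CPM (counts scaled by TMM to a library size of 1e+06) or, to compare genes with each other, as FPKM (CPM per kilobase of the gene length in the table). A gene was called higher or lower at a false discovery rate (FDR) below 0.05 in edgeR's quasi-likelihood test, adjusted over the 17142 genes with enough counts to test, together with an absolute log2 fold change above 1, the thresholds named in the study's methods. Replicate libraries were not copies of each other, since their counts spread beyond sampling noise (chi-square over its degrees of freedom 1.77 to 2.47 within a group), and all 6 entered as separate samples. Of 10 markers of luminal prostate epithelium, 10 were detected above 3 counts, and their summed level was 684 to 693 FPKM in parental and 718 to 731 FPKM in resistant libraries.

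Within the axis HGF mRNA differed most, 3.72-fold higher in resistant cells, and MET was 1.5-fold higher from a low level. The tested proteases and Kunitz inhibitors lay between 0.923-fold (ST14) and 1.14-fold (HPN) of their parental level. Among the 8 genes of the axis with enough counts, 1 was called higher, HGF, and none was called lower, where 2.53% of all genes tested were called higher and 2.84% lower. At the FDR alone, 3 genes (HGF, MET and HPN) were higher and 1 (ST14) was lower, against 17.1% of all genes tested that were higher and 18.4% that were lower. For ST14 and HPN this rested on the setting, since 7 of 14 alternative fits for ST14 and 8 of 14 for HPN did not pass the FDR threshold. Leaving out parental library 1 or 3 or resistant library 1 or 2 was enough for either gene, with log2 fold changes from −0.11 to −0.09 for ST14 and from 0.15 to 0.20 for HPN in those 4 fits. HGF had been selected on this contrast, so nothing is read from these shares.

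HGF (ENSG00000019991; hg38 chromosome 7, reverse strand, 81699008 to 81770438) was well expressed in both groups. Parental libraries held 2507, 2384 and 2002 HGF counts, and resistant libraries held 8730, 8050 and 8622. All resistant libraries stood far above all parental ones, and the libraries of a group lay close together. Mean HGF levels were 144 ± 1.76 CPM in parental and 535 ± 10.8 CPM in resistant libraries (SD, n = 3). The log2 fold change of 1.89 (SE 0.030) stayed between 1.88 and 1.91 when any 1 library was left out. Per gene length, HGF mRNA exceeded that of 79.7% of the genes tested in parental cells and of 95.6% in resistant cells. Among the 434 genes called higher in resistant cells, HGF stood at place 134 by fold change but at place 3 by CPM in resistant cells. CPM is not divided by gene length, and HGF has 9817 bases. By FPKM in resistant cells, HGF stood at place 747 of the 17142 genes tested. The counts sum all HGF transcripts, so full-length HGF and its truncated forms cannot be told apart. In bulk RNA, more cells that express HGF and more HGF mRNA per cell cannot be told apart either.

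MET (ENSG00000105976; chromosome 7, forward strand, 116672390 to 116798386) was a low-abundance transcript in both groups. Its counts were 145, 189 and 133 in parental libraries and 252, 209 and 234 in resistant libraries. In CPM the resistant libraries (14.2 to 15.2) all lay above the parental ones (8.41 to 11.3), whose spread was wider. The log2 fold change was 0.58 (SE 0.11, 95% interval 0.36 to 0.81), a 1.5-fold difference that did not reach the fold threshold for a call. MET mRNA exceeded that of 27.1% of the genes tested in parental cells and of 34.1% in resistant cells, per gene length.

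**Figure D1:**
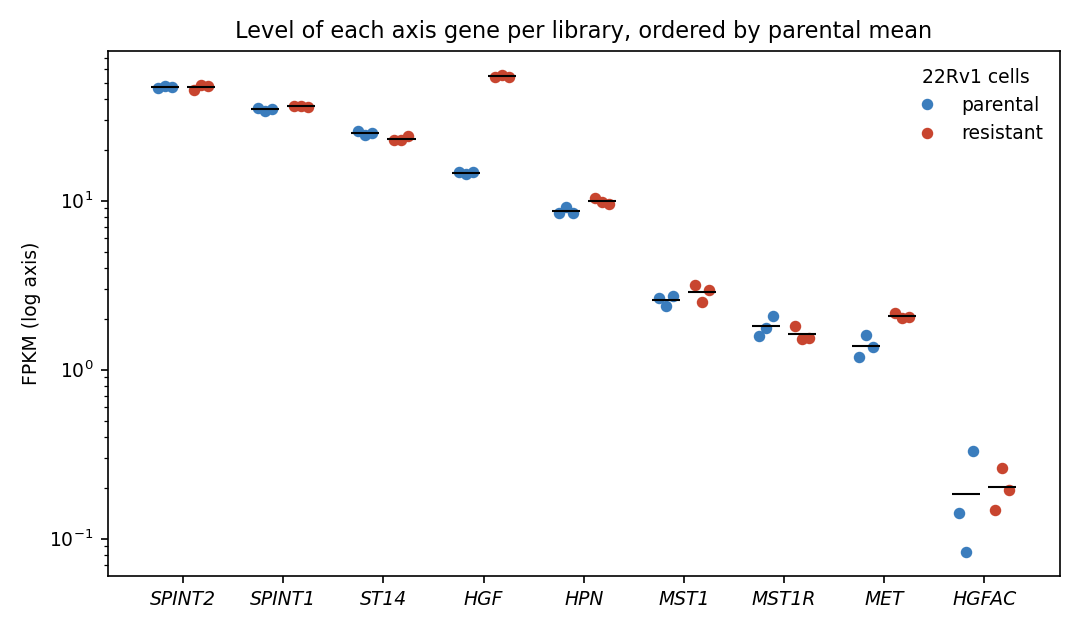
Level of the 9 genes of the HGF-MET axis in each library, in FPKM on a log axis, with parental libraries in blue, resistant libraries in red and a line at the mean of each group of 3. HGF moves from a mean of 14.7 to 54.5 FPKM and passes SPINT2, SPINT1 and ST14, whereas MET lies between 1.20 and 2.16 FPKM and HGFAC below 1.

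The order of the genes by level changed at the place of HGF. In parental cells SPINT2 was the most abundant at 47.3 ± 0.65 FPKM (SD, n = 3), followed by SPINT1, ST14, HGF, HPN, MST1, MST1R, MET and HGFAC. In resistant cells HGF came first at 54.5 ± 1.10 FPKM (SD, n = 3), with SPINT2 at 47.1 ± 1.47 FPKM (SD, n = 3) behind it, and MET stood above MST1R. Neighbors in the order did not overlap between libraries of the same group, with 1 exception: MST1R (1.58 to 2.09 FPKM) and MET (1.20 to 1.60 FPKM) overlapped in parental cells.

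The proteases that can activate HGF differed from each other more than the groups did. ST14 (ENSG00000149418; chromosome 11, 130159562 to 130210376, forward strand) had 1951, 1789 and 1529 counts in parental and 1652, 1457 and 1714 counts in resistant libraries. After scaling, the resistant libraries (99.1 to 106 CPM) all lay below the parental ones (107 to 113 CPM), but the nearest libraries of both groups were almost level. The log2 fold change was −0.12 (SE 0.041, 95% interval −0.20 to −0.03).

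HPN (ENSG00000105707; chromosome 19, 35040506 to 35066571, forward strand), known for raised expression in prostate cancer, had 495, 521 and 399 counts in parental libraries and 585, 487 and 526 counts in resistant libraries. In CPM the resistant libraries (32.4 to 35.3) were all above the parental ones (28.7 to 31.0), by a small margin. The log2 fold change was 0.19 (SE 0.070, 95% interval 0.05 to 0.33). ST14 mRNA was 2.90 ± 0.21 times that of HPN in parental cells and 2.35 ± 0.17 times in resistant cells (ratio of FPKM, SD, n = 3).

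HGFAC (ENSG00000109758; chromosome 4, 3441887 to 3449495, forward strand) was close to the detection limit and was left out of the test by the filter on low counts. It had 7, 4 and 13 counts in parental libraries and 7, 11 and 9 counts in resistant libraries. The groups overlapped, and the scaled ratio of summed counts, resistant over parental, was 1.13 with an exact 95% interval of 0.63 to 2.05 that covers counting error only. A difference within that interval was not detectable at this depth.

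Both inhibitors were abundant and nearly level between the groups. SPINT1 (ENSG00000166145; chromosome 15, 40844018 to 40858207, forward strand), an inhibitor of matriptase, hepsin and the HGF activator, had 2159, 2022 and 1706 counts in parental and 2143, 1897 and 2066 counts in resistant libraries. The resistant libraries lay above the parental ones in CPM (127 to 129 against 120 to 125), with a log2 fold change of 0.065 (SE 0.037, 95% interval −0.01 to 0.14). SPINT2 (ENSG00000167642; chromosome 19, 38244035 to 38292614, forward strand), its close relative, had 4192, 4193 and 3400 counts in parental and 3913, 3684 and 4020 counts in resistant libraries. Its groups overlapped, and the log2 fold change was −0.0075 (SE 0.032, 95% interval −0.07 to 0.06). PPP1R14A, a gene of 18 to 59 counts per library, lies within SPINT2 on the opposite strand. AC011479.1, with at most 3 counts, overlaps SPINT2 on the same strand. Antisense genes overlap HPN (HPN-AS1, at most 7 counts), SPINT1 (SPINT1-AS1, at most 94 counts) and MST1R (at most 21 counts). Among the genes that overlap MST1, APEH had the most counts, 3117 to 4570 per library, and shares 17 bases with it. No gene in the table overlaps HGF, MET, ST14 or HGFAC.

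MST1 and MST1R, the relatives of HGF and MET, were expressed at low levels and overlapped between the groups. MST1 (ENSG00000173531; chromosome 3, 49683947 to 49689501, reverse strand) had 232, 203 and 194 counts in parental libraries and 266, 189 and 244 counts in resistant libraries. Its log2 fold change was 0.16 (SE 0.10, 95% interval −0.05 to 0.37). MST1 has near-identical copies on chromosome 1, MST1L and MST1P2, which held 16 to 35 and 60 to 87 counts per library, so its own count is uncertain. With the copies added, the log2 fold change was 0.066.

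MST1R (ENSG00000164078; chromosome 3, 49887002 to 49903873, reverse strand) had 143, 156 and 152 counts in parental libraries and 159, 118 and 131 counts in resistant libraries. Its log2 fold change was −0.14 (SE 0.13, 95% interval −0.40 to 0.12), and its groups overlapped, unlike those of MET. Over the axis, 4 of the 8 genes tested (HGF, MET, HPN and SPINT1) had all resistant libraries above all parental ones and 1 (ST14) had them all below, where 22.1% and 22.8% of all genes tested did.

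**Figure D2:**
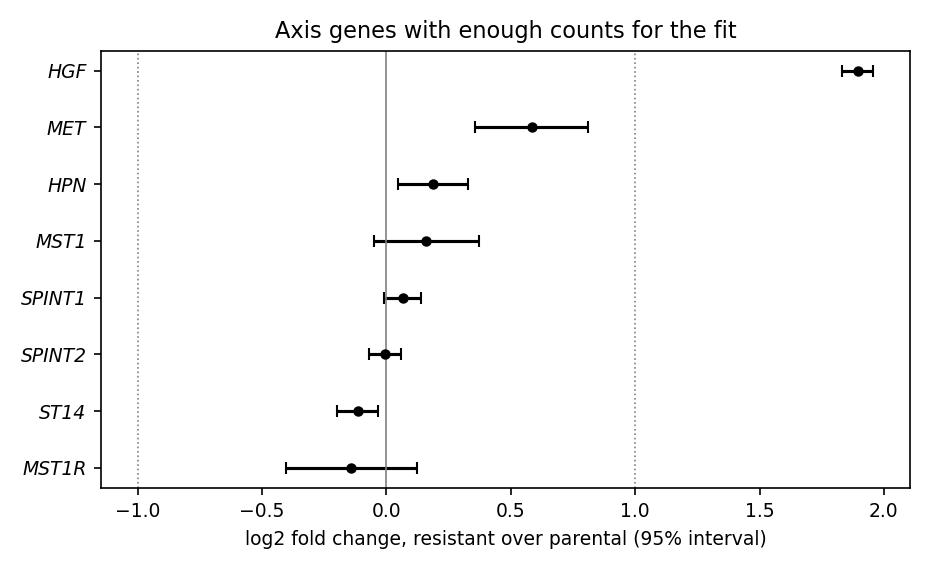
Log2 fold change of resistant over parental cells for the 8 genes of the axis with enough counts, as points with 95% intervals from edgeR's fit on 3 libraries against 3; the solid line marks 0 and the dotted lines the thresholds of −1 and 1. HGF alone lies beyond a threshold, and MET is the next highest at 0.58.

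The ratio of ligand to receptor mRNA within a library was higher in resistant cells, which restates the HGF and MET differences given above. HGF mRNA was 12.4, 9.04 and 10.8 times that of MET in the parental libraries and 24.8, 27.6 and 26.4 times in the resistant libraries, per gene length. The mean ratio was 10.7 ± 1.68 (SD, n = 3) in parental cells and 26.3 ± 1.39 (SD, n = 3) in resistant cells, with no overlap. The summed FPKM of ST14, HPN and HGFAC relative to that of SPINT1 and SPINT2 was 0.422, 0.412 and 0.418 in parental libraries and 0.409, 0.388 and 0.408 in resistant libraries. The resistant libraries all lay below the parental ones by a small margin, and the means were 0.417 ± 0.0052 (SD, n = 3) and 0.402 ± 0.012 (SD, n = 3). ST14 relative to SPINT1 alone was 0.729 ± 0.0078 (SD, n = 3) in parental cells and 0.643 ± 0.028 (SD, n = 3) in resistant cells.

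**Figure D3:**
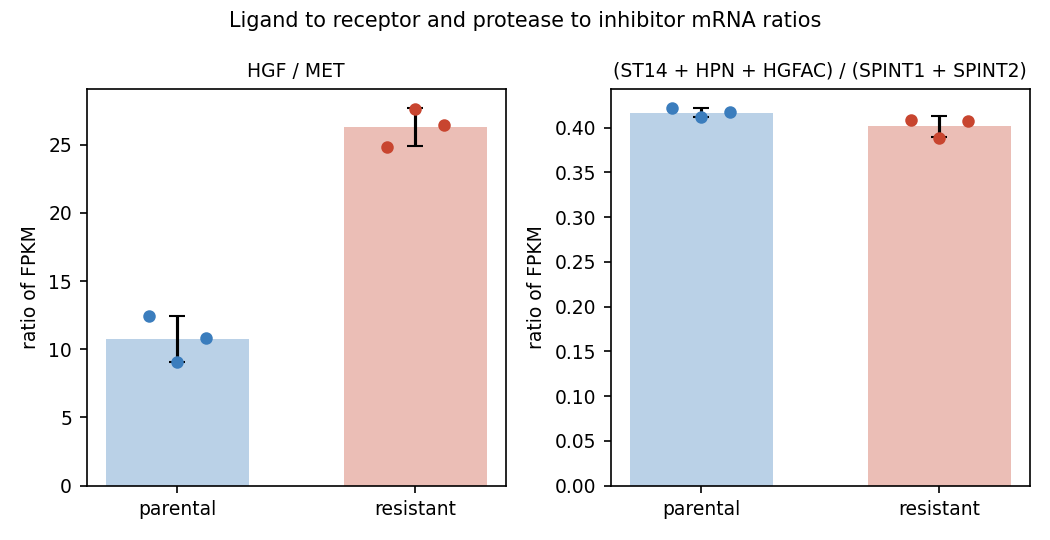
Ratio of FPKM within each library for HGF over MET (left) and for the summed proteases over the summed Kunitz inhibitors (right); points are libraries, bars the mean of 3 and whiskers the SD. The HGF to MET ratio goes from 10.7 to 26.3, whereas the protease to inhibitor ratio goes from 0.417 to 0.402.

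Markers of fibroblasts and of endothelial and blood cells, cell types that a culture of 1 line should lack, were read beside HGF. Of 10 fibroblast markers, 6 were detected above 3 counts, among them COL1A1 with 164 to 259 counts per library. FAP and POSTN had no count in any library, and COL1A2 and THY1 had no library above 3 counts. The summed level of the 10 markers was 33.0 to 34.7 FPKM in parental and 10.1 to 11.7 FPKM in resistant libraries. Without LUM the other 9 markers summed to 1.64 to 1.90 FPKM in parental and 1.49 to 1.63 FPKM in resistant libraries, and the part of these cells in the HGF level was not tested. Most of the full sum was LUM (lumican, a matrix proteoglycan), which fell by 1.74 on the log2 scale (SE 0.057, FDR 1.11e-26, edgeR). COL6A3, a collagen VI chain, was the marker called higher, from 13, 16 and 17 counts to 36, 26 and 41 counts. The 8 endothelial and blood cell markers summed to between 0.492 and 1.09 FPKM over all 6 libraries.

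HGF was compared with 13575 other protein-coding genes by the Euclidean distance between their profiles over the 6 libraries, on log2 CPM centered on each gene's mean. The nearest profiles were those of ABCC1 (a drug efflux pump, distance 0.102), VIM (vimentin, an intermediate filament protein, 0.205), PCSK1 (a prohormone convertase, 0.261), CDH17 (a cadherin, 0.265) and MAP1B (a microtubule-associated protein, 0.271), against a median distance of 2.35. VIM, for example, had 306, 290 and 257 counts in parental libraries and 1025, 893 and 942 counts in resistant libraries. With 6 libraries in 2 groups, this likeness mostly says that the genes differed between the groups by a similar fold.

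On chromosome 7, the 3 tested genes that start within 1 Mb of HGF were all higher in resistant cells at the FDR alone, where 17.1% of all genes tested were, and their log2 fold changes were smaller than that of HGF. CACNA2D1 (a calcium channel subunit) had a log2 fold change of 0.54 (SE 0.057, FDR 2.63e-10), SEMA3C (a secreted semaphorin) 0.38 (SE 0.056, FDR 4.87e-07) and AC008163.1 0.58 (SE 0.13, FDR 4.86e-04), all from edgeR. None of these 3 genes near HGF was called. Around MET, 6 genes were tested within 1 Mb and none was called either, where 2.53% of all genes tested were called higher and 2.84% lower. At the FDR alone, 1 gene near MET was higher and 1 (TES) was lower, against 17.1% and 18.4% of all genes tested. Their log2 fold changes ran from −0.31 (TES) to 0.63 (CAV2, which had at most 19 counts in a library). Whether the copy number of these segments differs between the lines was not tested.

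The wider pathway was read from 115 further genes listed by their known role, of which 91 had enough counts to test. The lists were written with earlier results of these data known, so their calls and shares are a description too. KLK4, PTPRJ and SPRY4, 3 genes, were called higher in resistant cells, and ITGA6, CD44, ETV4 and MMP14, 4 genes, were called lower, where 2.53% of all genes tested were called higher and 2.84% lower. At the FDR alone, 13 (14.3%) were higher and 36 (39.6%) were lower, against the 17.1% and 18.4% of all genes tested given above. The median log2 fold change was −0.11, against 0.0038 over all genes tested. The median level of these genes was 48.2 CPM, against 19.6 CPM over all genes tested, and the part of this difference in the counts was not tested.

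Among 14 other genes of the activating cascade, 6 could be tested. KLK4, a prostate kallikrein, rose from 2860, 2837 and 2556 counts to 7765, 6873 and 7872 counts, with no overlap. Its log2 fold change was 1.46 (SE 0.033, FDR 1.05e-32, edgeR), and its mRNA reached 245 FPKM in resistant cells, above every protease and inhibitor of the axis. TMPRSS2, a membrane-bound serine protease of the prostate that can cut pro-HGF, was higher by 0.79 on the log2 scale (SE 0.086, FDR 4.74e-10), below the fold threshold. F12 (coagulation factor XII), PRSS8 (prostasin, a partner of matriptase) and PLAUR (the urokinase receptor) were lower at the FDR alone, with log2 fold changes of −0.32, −0.33 and −0.73. The urokinase gene PLAU and the plasminogen gene PLG had no count in any library. Of 6 serpins, SERPINB8 alone could be tested, with a log2 fold change of −0.46 (SE 0.22, FDR 0.0975).

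Of 15 tested surface partners of MET or HGF, 9 (60%) were lower and 3 (20%) higher at the FDR alone, against 18.4% and 17.1% of all genes tested, with a median log2 fold change of −0.22. ITGA6, the integrin α6 chain, fell from 207, 203 and 157 counts to 66, 61 and 75 counts, a log2 fold change of −1.47 (SE 0.14, FDR 6.82e-12, edgeR). CD44, a hyaluronan receptor with forms that present HGF to MET, fell from 958, 903 and 732 counts to 430, 354 and 418 counts, a log2 fold change of −1.10 (SE 0.064, FDR 5.73e-18, edgeR). Neither gene overlapped between the groups. The most abundant partners had small log2 fold changes: −0.11 for PLXNB2, a plexin, 0.087 for ITGB1, an integrin β chain, and −0.11 for ERBB3, which encodes HER3. At the FDR alone PLXNB2 and ERBB3 were lower and ITGB1 was higher, each without overlap between the groups. The paper reports a marked drop of HER3 in the subline, in protein and, by qRT-PCR, in mRNA. In these counts ERBB3 mRNA was at 0.928-fold of its parental level, and the reason for the smaller drop was not tested. EGFR, the other target of BL-B01D1, was higher by 0.38 (SE 0.052) on the log2 scale.

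**Figure D4:**
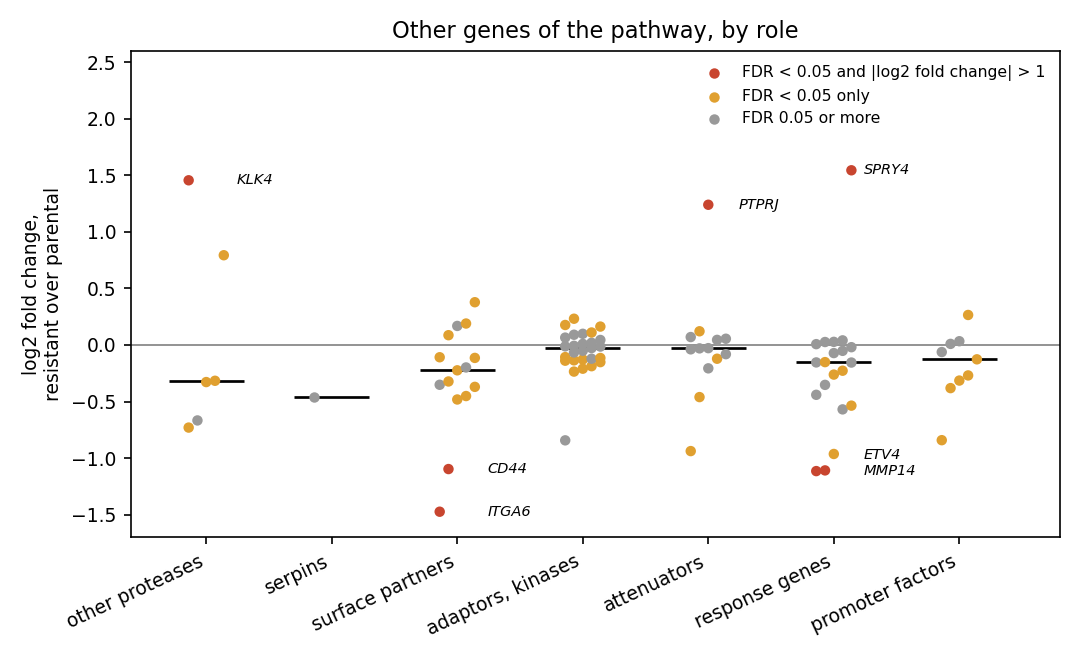
Log2 fold change of resistant over parental cells for the tested genes of 7 lists of pathway genes, with a black line at each list's median and a grey line at the median of all genes tested, 0.0038. Red points passed both thresholds and are named, orange points passed the FDR alone; most adaptors sit near 0, and CD44 and ITGA6 are the lowest of the surface partners.

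The adaptors and kinases that carry the receptor's signal showed no call in 27 tested genes. Calls over all genes tested were also few, 2.53% higher and 2.84% lower. At the FDR alone 4 adaptors (14.8%) were higher and 9 (33.3%) lower, against 17.1% and 18.4% of all genes tested, and the median log2 fold change was −0.028. The most abundant were HRAS (a RAS GTPase, −0.066), PTPN11 (the phosphatase SHP2, −0.15) and GRB2 (the adaptor that links receptors to RAS, 0.091). GAB1, the main docking protein of MET, had a log2 fold change of −0.24 (SE 0.091, FDR 0.0392, edgeR).

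Among 13 tested genes that end receptor signaling, 2 (15.4%) were higher and 3 (23.1%) lower at the FDR alone, against 17.1% and 18.4% of all genes tested. PTPRJ was called higher and none was called lower, where 2.53% of all genes tested were called higher and 2.84% lower. This receptor-type phosphatase, which can remove phosphate from MET, rose from 483, 495 and 416 counts to 1066, 1082 and 1113 counts, a log2 fold change of 1.24 (SE 0.061, FDR 2.20e-20, edgeR). CBL, the ubiquitin ligase that sends MET to degradation, had a log2 fold change of −0.039 (SE 0.046, FDR 0.564). PTPN1, HGS and ADAM10 were the most abundant of this list, with log2 fold changes of 0.12, 0.070 and −0.12. SH3GL2, the endophilin that acts with CBL in receptor uptake, was lower at the FDR alone by −0.94 (SE 0.16), from 110 to 138 counts in parental to 51 to 77 counts in resistant libraries.

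Genes that rise after signaling by MET and by other receptor kinases differed in both directions. Of 20 tested, 7 (35%) were lower and 1 (5%) was higher at the FDR alone, against 18.4% and 17.1% of all genes tested, with a median log2 fold change of −0.15. SPRY4, a feedback inhibitor of RAS-MAPK signaling, rose from 110, 92 and 96 counts to 285, 278 and 300 counts, a log2 fold change of 1.54 (SE 0.11, FDR 1.14e-14, edgeR), a call lost with limma on log2(FPKM + 1). ETV4, an ETS factor downstream of the same pathway, fell from 535, 488 and 451 counts to 228, 206 and 245 counts, a log2 fold change of −1.11 (SE 0.082, FDR 1.12e-14, edgeR). MMP14, a membrane-bound matrix metalloproteinase, was called lower on 30, 26 and 17 against 7, 12 and 14 counts, a log2 fold change of −1.11 (SE 0.37, FDR 0.0148, edgeR). The MMP14 call was lost in 4 other fits and without parental library 1 (log2 fold change −0.9955, FDR 0.0704) or resistant library 1 (log2 fold change −0.84, FDR 0.118). The most abundant response genes had log2 fold changes of 0.026 (CCND1, cyclin D1), −0.052 (MYC) and 0.028 (JUN).

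Of 9 tested transcription factors known to act at the HGF or MET promoter, none was called. Calls over all genes tested were also few, 2.53% higher and 2.84% lower. At the FDR alone, 5 (55.6%) of the 9 were lower and 1 (11.1%) was higher, against 18.4% and 17.1% of all genes tested. NR2F1, the orphan nuclear receptor COUP-TFI, differed most, from 1192, 972 and 811 counts in parental to 570, 515 and 557 counts in resistant libraries, a log2 fold change of −0.84 (SE 0.064, FDR 2.13e-14, edgeR). YBX1, a cold-shock domain protein, was the most abundant, with a log2 fold change of 0.0097 (SE 0.024). HIF1A, the hypoxia-inducible factor that acts on the MET promoter, was higher by 0.27 on the log2 scale (SE 0.038, FDR 3.46e-07, edgeR).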

How the data were processed

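Poly-A RNA was sequenced on an Illumina NovaSeq instrument, and the authors mapped reads to hg38 with HISAT2 (2.0.5) and counted them per gene with featureCounts (1.5.0-p3); per the submitters' processing notes, fastp was also used. The deposited table holds raw counts and, as another quantity listed by the authors, gene length in bases. The annotation release and the strand setting are not given in the sources used here, so overlapping, antisense and near-identical genes are uncertain. Counts were filtered with filterByExpr, scaled with TMM and tested by quasi-likelihood in edgeR (version 4.0.16, R 4.3.3) with Benjamini-Hochberg adjustment over all genes tested. The SE is the log2 fold change divided by the square root of F. The scripts were tested on simulated counts. Members and lists were chosen with earlier results of these data known; the further genes were listed by role, and those named are the ones called and the 3 of highest FPKM in each list, apart from 1 that is not reported here. ABCC1 and others were named by their distance to HGF; GAB1, CBL, NR2F1, SH3GL2, EGFR, TMPRSS2, PLAUR, PLAU, PLG, TES, CAV2 and the genes near HGF were added after their values were seen. Alternatives were limma-voom (limma 3.58.1), DESeq2 (1.42.0), limma on log2(FPKM + 1), glmTreat, library size alone, other filters, a replicate block and leaving out each library. No human sequence was used here.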

Additional observations from a re-analysis of the deposited data

How the results depend on the processing

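HGF was called higher and no other gene of the axis was called in any of the 14 alternative fits, and its log2 fold change ranged from 1.83 to 1.90, or from 1.88 to 1.91 with 1 library left out. Of 213 values computed under the alternatives, 183 kept direction and significance, or moved by less than the replicate SD or, for counts of genes, by less than 1.5 times. The log2 fold change of MET, 0.58, had an FDR of 1 with glmTreat, which tests against an absolute log2 fold change of 1, and ranged from 0.48 to 0.71 with 1 library left out. SPINT2, at −0.0075, turned to 0.0029 without parental library 2 and to 0.020 without resistant library 1, and was −0.0231 without resistant library 2, the lowest value with 1 library left out. Genes called higher and lower, 434 and 487, became 116 and 64 with limma on log2(FPKM + 1), 178 and 144 with glmTreat, and 248 and 287 with at least 10 counts in every library, and ranged from 415 to 450 and 471 to 493 with 1 library left out. The 4 pathway genes called lower became 0 with limma on log2(FPKM + 1) and 1 with glmTreat, and CD44 and ETV4 were not called in either. ITGA6, also called lower in the main fit, was not called with limma on log2(FPKM + 1). The 3 called higher became 2 with limma on log2(FPKM + 1), where SPRY4 was not called. Pathway genes past the FDR, 13 higher and 36 lower, became 3 and 1 with glmTreat and 7 and 27 with limma on log2(FPKM + 1), and ranged from 9 to 13 and from 29 to 31 with 1 library left out. Without division by gene length, the HGF to MET ratio was 15.0 in parental and 36.7 in resistant cells and the protease to inhibitor ratio 0.380 and 0.364. With 1 library left out, the HGF to MET ratio ranged from 9.92 to 11.6 and from 25.6 to 27.0. The causes of these changes were not tested, and some alternatives leave fewer samples or genes. A replicate block gave 418 genes higher and 471 lower and a log2 fold change of 1.89 for HGF, and changed no call in the axis. Same-numbered libraries had correlations of deviations of −0.020 to −0.008, so no shared deviation by number was seen. Such correlations cannot show whether same-numbered libraries were handled together. The sum of MST1 with its copies was chosen after seeing the data. Depth limits HGFAC and other genes near 3 counts, which correspond to 0.174 to 0.216 CPM.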
